A study of Mus musculus with 8 samples.

Results

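The genes described are 10 members of the interleukin-1 (IL-1) system, *Il1a*, *Il1b*, *Il18*, *Il33*, *Il1rn*, *Il1r1*, *Il1r2*, *Il1rl1*, *Nlrp3* and *Casp1*, out of 48709 genes measured in the mouse pancreas. They were chosen by name with earlier results of these data known, and each name matched 1 row in every library. Shares over all genes set beside counts of members are therefore a description and not a test of the set. RNA-Seq was performed on whole pancreata of male mice aged 8 weeks, 24 hours after induction, with 2 libraries in each of 4 groups. WT mice were bought from a vendor and were not littermates of the knockouts. In cKO mice, floxed exons of *Pfkfb3* (*Pfkfb3* fl/fl) are removed by Cre expressed under the *Pdx1* promoter, which acts in the epithelial lineages of the pancreas and not in blood-derived cells. Each genotype received either normal saline or palmitoleic acid (POA) and ethanol by intraperitoneal injection, a model of alcoholic severe acute pancreatitis (FAEE-SAP). WT mice carry neither the floxed allele nor Cre, so the effects of *Pfkfb3* loss, of Cre and of the source of the mice cannot be told apart. No source used here says whether the libraries of a group came from separate mice or pools, and p-values measure only the spread between these libraries.

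IL-1α and IL-1β are cytokines that bind the same receptor, IL-1R1, and switch on NF-κB and chemokine genes through the adaptor MyD88. IL-1β and IL-18 are made as inactive precursors and are cut by caspase-1, which is activated in inflammasomes such as the one built on NLRP3, whereas IL-1α and IL-33 can act as alarm signals when damaged cells release them. The pathway is restrained by the receptor antagonist IL-1RA (*Il1rn*) and by the decoy receptor IL-1R2. In acute pancreatitis, IL-1 is known as an early cytokine of injured acinar tissue and of the leukocytes that enter it.

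*Il1a* and *Il1b* lie side by side on the minus strand of chromosome 2 (GRCm38 129299610 to 129309972 and 129364570 to 129371139), and *Il1rn* lies on the plus strand of the same chromosome (24336853 to 24351494). *Il1r2*, *Il1r1* and *Il1rl1* lie in this order on the plus strand of chromosome 1 (40074079 to 40125231, 40225080 to 40317257 and 40429570 to 40465415). *Il18* (50554827 to 50581840) and *Casp1* (5298517 to 5307265) are on chromosome 9, *Nlrp3* (59541568 to 59566956) is on chromosome 11 and *Il33* (29925114 to 29960718) is on chromosome 19. Exons of *Il1b* overlap those of the antisense gene *Il1bos*, which was listed at 0 to 0.0164 scaled RPKM in the 8 libraries. Exons of *Il1a* overlap those of *Gm14023* on the other strand, which was listed at 0 to 0.175 scaled RPKM, a range that spans the saline levels of *Il1a*. The library kit was directional, but the sources used here do not state whether reads were counted by strand.

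Sequences before annotated start sites are shown for the 4 members that were called higher in WT mice after FAEE-SAP. They are taken from RefSeq (GRCm38.p6), where all 10 members matched, with 16 start sites between them. Each is the part of the 250 bases before a start site that lies outside annotated exons of the same gene, 5′ to 3′ on the strand of the gene. Capitals mark matches to AP-1 (TGANTCA), C/EBP (TTNNGNAA) and PU.1 (GAGGAAG) motifs on either strand and to TATAAA on the strand of the gene.
Il1a, chr2:129309973-129310222, minus strand: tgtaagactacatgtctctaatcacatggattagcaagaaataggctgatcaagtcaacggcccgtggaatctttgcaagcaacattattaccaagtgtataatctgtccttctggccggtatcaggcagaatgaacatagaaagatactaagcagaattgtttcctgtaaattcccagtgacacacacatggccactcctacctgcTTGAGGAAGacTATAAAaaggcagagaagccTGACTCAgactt
Il1b, chr2:129371140-129371389, minus strand: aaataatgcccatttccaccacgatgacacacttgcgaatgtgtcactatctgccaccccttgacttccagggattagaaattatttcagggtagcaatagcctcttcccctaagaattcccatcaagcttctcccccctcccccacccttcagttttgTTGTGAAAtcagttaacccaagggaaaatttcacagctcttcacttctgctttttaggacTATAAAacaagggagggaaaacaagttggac
Il1rn, first start, chr2:24336610-24336852, plus strand: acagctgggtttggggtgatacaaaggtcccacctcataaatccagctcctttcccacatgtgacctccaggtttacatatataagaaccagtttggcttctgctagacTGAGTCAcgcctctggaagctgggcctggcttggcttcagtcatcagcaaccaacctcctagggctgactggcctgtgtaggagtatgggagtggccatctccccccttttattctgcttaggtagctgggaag
Il1rn, second start, chr2:24345041-24345287, plus strand: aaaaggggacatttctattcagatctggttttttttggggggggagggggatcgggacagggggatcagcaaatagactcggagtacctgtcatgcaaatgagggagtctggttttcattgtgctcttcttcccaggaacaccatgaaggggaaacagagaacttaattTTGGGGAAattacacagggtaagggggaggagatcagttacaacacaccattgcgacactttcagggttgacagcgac
Il1r2, chr1:40085843-40085984, plus strand: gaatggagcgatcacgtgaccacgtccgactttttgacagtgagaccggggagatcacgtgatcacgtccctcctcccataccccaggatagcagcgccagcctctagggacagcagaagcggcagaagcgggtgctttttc

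The pair of cytokine genes had TATAAA at nearly the same place, beginning 32 bases before the start of *Il1a* and 31 bases before that of *Il1b*. TATAAA was found in 7.59% of the 32851 windows of 250 bases upstream of all RefSeq start sites and in 4 of the 16 member windows. The others were of *Il33*, which was not called in the WT response, with TATAAA beginning 29 bases before its second start and 203 bases before its first. A C/EBP match lay 91 bases before *Il1b*, 43 bases before *Il1a*, where it overlaps the PU.1 match that begins at 41 bases, and 81 bases before the second start of *Il1rn*. *Il1rn* has a further start at 24345371, whose window is not printed because most of it is the window of the second start. It holds the same C/EBP match, 161 bases before it, and others at 65 and 64 bases. C/EBP matches are common, with 36.8% of all windows and 12 of the 16 member windows holding one. AP-1 matches were found 12 bases before *Il1a* and 141 bases before the first start of *Il1rn*, and 6.75% of all windows hold one. PU.1 matches were in 10.6% of all windows. The NF-κB consensus was searched in the same way and was in 7.25% of all windows and in 2 member windows, 1 of *Il1r1* and 1 of *Nlrp3*. The window of *Il1r2* and that of the second start of *Il1rn* lie inside the genes as given above, before internal start sites. None of these motifs was found in that window of *Il1r2*, and the start of the longer *Il1r2* gene model was not analysed here. These are matches of letters in short windows and do not show binding.

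Levels were deposited by the authors as RPKM, which are read numbers corrected for exon length and library size, and are given below divided by 1 factor per library (median of ratios over 8 libraries), called scaled RPKM. The factors were 0.621 to 0.866 in saline libraries, 0.975 and 1.05 in cKO FAEE-SAP libraries and 1.94 and 2.02 in WT FAEE-SAP libraries. Library totals worked out from the low values were 22.9 to 37.8 M reads. Acinar markers (10 genes) were above 0 in every library and summed to 244598 to 331486 scaled RPKM in saline, 193194 and 213699 in cKO FAEE-SAP and 76814 and 80565 in WT FAEE-SAP libraries. In whole tissue, fewer cells of a type and less RNA per cell cannot be told apart. *Pfkfb3* itself was 0.880 to 2.82 scaled RPKM in libraries labelled cKO and 1.69 to 3.21 in those labelled WT, and a value for the whole gene cannot show the loss of some exons, so the genotypes are taken from the labels.

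All 10 members were low in saline. *Il33* was highest, at 0.931 to 1.86 scaled RPKM over the 4 saline libraries, then *Casp1* (0.448 to 1.02) and *Il1r1* (0.616 to 0.692), and *Nlrp3* was lowest (0.0119 to 0.0315). In the WT response to FAEE-SAP, *Il1rn*, *Il1b*, *Il1r2* and *Il1a* rose, by 3.55, 3.52, 2.49 and 1.68 on the log2 scale, while *Casp1* did not pass the test. These sizes depended on the processing. Over the alternatives tried they ranged from 1.39 to 4.72, 1.32 to 5.44, 1.03 to 3.50 and 0.41 to 2.62. The 4 calls were lost without WT FAEE-SAP replicate 2, and that of *Il1a* under most alternatives tried. In libraries labelled cKO, 3 members reached the level needed for testing and 0 passed by limma, where 0.0531% of all genes tested passed. *Il1b*, which did not reach that level, stood 5.76 times above saline by reads scaled for library total and factor. Its cKO FAEE-SAP libraries lay apart (0.599 and 0.226 scaled RPKM), and with no minimum level it was not called (limma adjusted p = 0.633). After FAEE-SAP, *Il1rn* was lower in libraries labelled cKO than in WT (log2 difference -2.69), a call that rested on both WT FAEE-SAP libraries and on the minimum level for testing, which only those libraries reached.

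**Figure D1:**
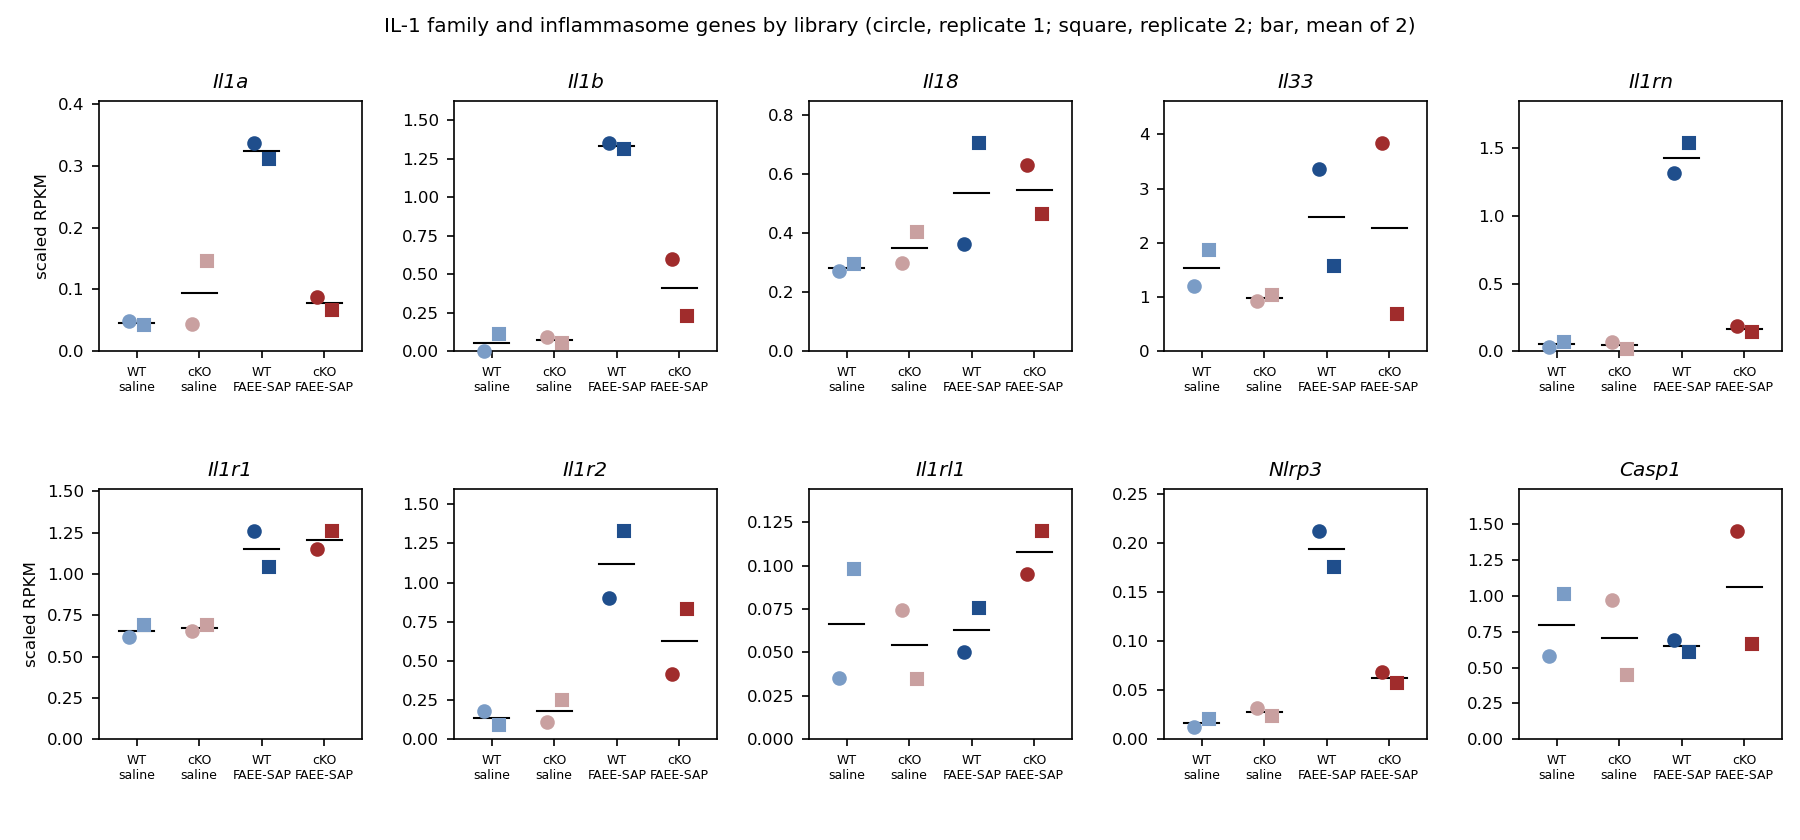
Scaled RPKM (y axis, from 0, a scale of its own in each panel) of the 10 members in the 4 groups (x axis), with 1 point per library and a bar at the mean of 2. The WT FAEE-SAP libraries stand above all other libraries for *Il1a*, *Il1b*, *Il1rn*, *Il1r2* and *Nlrp3*, whereas the cKO FAEE-SAP libraries lie far apart for *Il33* (3.85 and 0.678) and *Casp1* (1.46 and 0.664).

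To ask how the IL-1 genes responded to FAEE-SAP in WT pancreas, the 4 WT libraries were compared. Genes were tested with limma on log2(scaled RPKM + 0.1) where the deposited RPKM reached 0.5 in at least 2 libraries of the comparison, and were called where they changed 2-fold or more with a Benjamini-Hochberg adjusted p under 0.05. The scale understates the changes of low genes. Of the 10 members, 8 were tested and 4 were called, all higher, where 6.93% of the 10894 genes tested were called and 3.08% were called higher. *Il1a*, *Il1b*, *Il18*, *Il1rn* and *Il1r2* reached the minimum in the FAEE-SAP libraries alone, so their deposited RPKM had to be higher there. The scaled values tested did not have to differ, but the number called is not evidence about the members. With no minimum, all 10 members were tested, and *Il1b* and *Il1rn* were called higher, where 0.684% of 19311 genes were. The FAEE-SAP libraries lay above both saline libraries for 7 of the 10 members, and 23.1% of the genes with a value did so, and below both for 0 (25.1% of genes). With no minimum, the median log2 difference was 1.17 over all 10 members, with 9 above 0, and 0.03 over all genes, of which 53.1% were above 0.

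Of the ligands, *Il1b* was 0 and 0.111 scaled RPKM in the WT saline libraries and 1.36 and 1.32 in the WT FAEE-SAP libraries. The FAEE-SAP libraries were close to each other and lay far above saline, where 0 and 5 reads were recovered against 120 and 159. A count of 0 in that library allows up to 0.0761 scaled RPKM (3 reads). The summed reads of each group, divided by the summed product of library total and scale factor, gave a scaled read ratio of 22.5 (95% exact interval 9.54 to 69.9, counting error only), and limma a log2 difference of 3.52 (SE 0.45, n = 2 per group, adjusted p = 0.0137). Without WT FAEE-SAP replicate 1 or 2 the limma adjusted p was 0.0746 or 0.144, and with a pseudocount of 0.01 it was 0.0596.

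*Il1a*, whose product is active without cleavage by caspase-1, was 0.0490 and 0.0428 scaled RPKM in WT saline and 0.338 and 0.312 in WT FAEE-SAP libraries. It stood on fewer reads than *Il1b*, 2 and 2 in saline against 31 and 39 after FAEE-SAP. The scaled read ratio was 7.07 (95% interval 2.64 to 26.7), and the log2 difference was 1.68 (SE 0.30, limma adjusted p = 0.0326). Without WT FAEE-SAP replicate 1 or 2 the adjusted p was 0.149 or 0.189. The call of *Il1a* was also lost with quantile normalization (log2 difference 0.81, limma adjusted p = 0.128), with no minimum (adjusted p = 0.0585), with pseudocounts of 0.01 (adjusted p = 0.0512) and 1 (log2 difference 0.41) and in the model of all 8 libraries (adjusted p = 0.0508).

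The other ligands were not called. *Il33*, an alarm cytokine stored in nuclei of barrier and stromal cells, was 1.21 and 1.86 scaled RPKM in WT saline and 3.37 and 1.58 in WT FAEE-SAP libraries, which overlap (log2 difference 0.59, SE 0.41, limma adjusted p = 0.402). *Il18*, made constitutively by many epithelial and myeloid cells, was 0.271 and 0.296 in saline and 0.362 and 0.707 after FAEE-SAP. Its groups did not overlap, and the log2 difference was 0.69 (SE 0.35, limma adjusted p = 0.269).

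*Il1rn*, the antagonist, was 0.0310 and 0.0677 scaled RPKM in WT saline and 1.32 and 1.54 in WT FAEE-SAP libraries, from near the lowest of the members to the level of *Il1b*. Its log2 difference was 3.55 (SE 0.29, limma adjusted p = 0.00404), and the scaled read ratio was 28.6 (95% interval 13.8 to 71.5). Without WT FAEE-SAP replicate 2 the adjusted p was 0.0851, and without replicate 1 it was 0.0429. On the scaled RPKM of each library, the ratio of *Il1rn* to *Il1b* was 0.973 and 1.17 in WT FAEE-SAP libraries and 0.315 and 0.612 in those labelled cKO FAEE-SAP. In saline it was 0.306 to 0.765 in the 3 libraries with a read of *Il1b*.

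Of the receptors, *Il1r2*, which encodes the decoy, rose in WT and *Il1r1* did not pass the threshold. *Il1r2* was 0.178 and 0.0886 scaled RPKM in saline and 0.903 and 1.33 after FAEE-SAP (log2 difference 2.49, SE 0.35, limma adjusted p = 0.0172). Without WT FAEE-SAP replicate 1 or 2 the adjusted p was 0.0634 or 0.154, and with no minimum it was 0.0565. *Il1r1*, the signaling receptor, was 0.616 and 0.690 in saline and 1.26 and 1.04 after FAEE-SAP. The groups did not overlap and the scaled read ratio was 1.73 (95% interval 1.47 to 2.04), but the log2 difference of 0.74 (SE 0.24) had a limma adjusted p of 0.115. *Il1rl1*, the IL-33 receptor ST2, was 0.0351 and 0.0980 in saline and 0.050 and 0.0755 after FAEE-SAP, too low for the main test.

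In the inflammasome pair, *Nlrp3* and *Casp1* gave different pictures. *Nlrp3*, the sensor, was 0.0119 and 0.0208 scaled RPKM in WT saline and 0.212 and 0.175 in WT FAEE-SAP libraries, from 1 and 2 reads to 40 and 45. It stayed under the minimum for testing. The scaled read ratio was 11.4 (95% interval 3.78 to 56.6), and with no minimum the log2 difference was 1.53 (SE 0.23, limma adjusted p = 0.0565). *Casp1*, the protease, was 0.582 and 1.02 in saline and 0.691 and 0.611 after FAEE-SAP, groups that overlap. Its log2 difference was -0.23 (SE 0.32, limma adjusted p = 0.692), relative to the median of all genes. Without scaling it was 0.95, and the median gene was then 1.24 higher after FAEE-SAP.

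**Figure D2:**
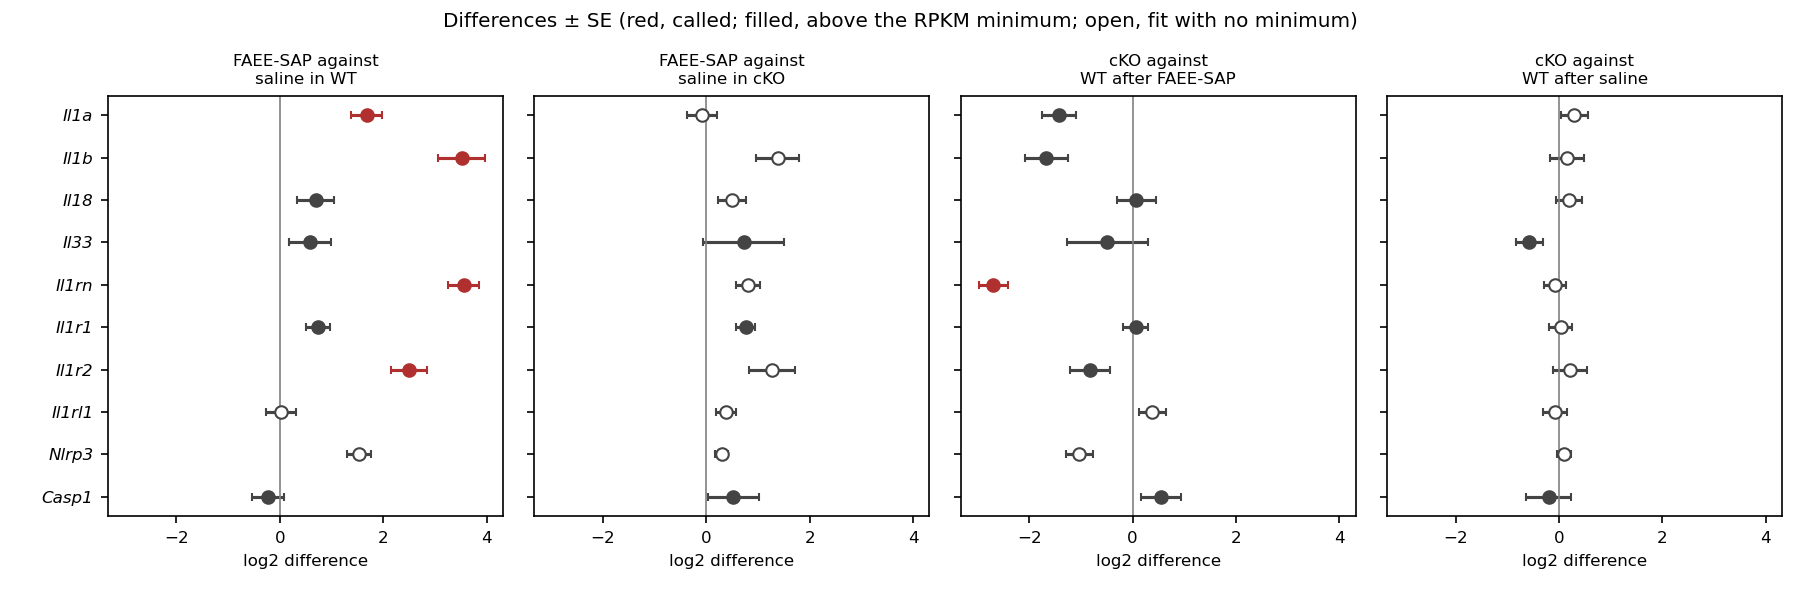
Log2 difference (x axis) with its SE for each member (y axis) in 4 comparisons, from limma on log2(scaled RPKM + 0.1), with open points from the fit with no RPKM minimum. Red points, *Il1a*, *Il1b*, *Il1rn* and *Il1r2* in the WT response and *Il1rn* in cKO against WT after FAEE-SAP, were called.

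In libraries labelled cKO, FAEE-SAP was compared with saline in the same way. Of the 10 members, 3 reached the minimum (*Il33*, *Il1r1* and *Casp1*) and 0 were called by limma, where 0.0531% of the 9423 genes tested were. At an unadjusted p under 0.05 with a 2-fold change the number of members was also 0, where 2.97% of genes passed. As in WT, 7 members lay above both saline libraries, *Il1b*, *Il18*, *Il1rn*, *Il1r1*, *Il1r2*, *Il1rl1* and *Nlrp3*, and 18.5% of all genes with a value did so, and 0 lay below both (17.3% of genes). *Il1r1* reached the minimum in the FAEE-SAP libraries alone. With no minimum, the median log2 difference was 0.60 over all 10 members, with 9 above 0, and 0.01 over all genes, of which 50.6% were above 0.

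*Il1b* was 0.0895 and 0.0502 scaled RPKM in cKO saline and 0.599 and 0.226 in cKO FAEE-SAP libraries. The scaled read ratio was 5.76 (95% interval 2.45 to 16.5), and with no minimum the log2 difference was 1.38 (SE 0.42, limma adjusted p = 0.633). *Il1rn* was 0.0684 and 0.0154 in saline and 0.189 and 0.138 after FAEE-SAP (with no minimum, 0.81, SE 0.24, limma adjusted p = 0.631). *Il1r2* was 0.112 and 0.251 in saline and 0.417 and 0.834 after FAEE-SAP, with a log2 difference of 1.27 with no minimum (SE 0.44, limma adjusted p = 0.646).

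*Il1r1* had close values within each cKO group, at 0.657 and 0.692 scaled RPKM in saline and 1.15 and 1.26 after FAEE-SAP. Its log2 difference was 0.76 (SE 0.18, unadjusted p = 0.00978, limma adjusted p = 0.408), beside 0.74 in WT, a comparison that shares no library with it. *Il1a* was 0.0432 and 0.146 in saline and 0.0877 and 0.0672 after FAEE-SAP, with the FAEE-SAP libraries between the saline ones. *Il18* was 0.299 and 0.402 in saline and 0.630 and 0.464 after FAEE-SAP.

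*Il33* and *Casp1* differed widely between the cKO FAEE-SAP libraries, as *Il1b* did, and replicate 1 was the high one in each. *Il33* was 0.931 and 1.03 scaled RPKM in cKO saline and 3.85 and 0.678 after FAEE-SAP, a mean of 2.26 ± 2.24 (SD, n = 2), and its log2 difference of 0.72 was -0.45 without cKO FAEE-SAP replicate 1. *Casp1* was 0.969 and 0.448 in saline and 1.46 and 0.664 after FAEE-SAP (log2 difference 0.52, SE 0.49, limma adjusted p = 0.738). Markers of T and innate lymphoid cells (7 genes) summed to 9.89 scaled RPKM in cKO FAEE-SAP replicate 1 and to 13.4 in WT saline replicate 2, and to 3.97 to 6.0 in the other 6 libraries. These 2 libraries also had the most *Casp1*, with cKO saline replicate 1, which did not have a high sum (4.26), next. The part of these cells in the values of *Casp1* was not tested. *Trac* and the *Cd3* genes followed the sum. *Il7r* and *Gata3* did not follow it in cKO FAEE-SAP replicate 1 (1.17 and 0.0348 scaled RPKM, against 1.35 and 0.0417 in replicate 2). *Il1rl1* was 0.0743 and 0.0347 in cKO saline and 0.0954 and 0.120 after FAEE-SAP, and *Nlrp3* was 0.0315 and 0.0236 in saline and 0.0683 and 0.0572 after FAEE-SAP.

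The genotypes were then compared after FAEE-SAP, with the libraries that also enter both comparisons above. Of the 8 members tested, 1 was called, *Il1rn*, lower in libraries labelled cKO, where 1.27% of the 11008 genes tested were called and 0.409% were called lower. *Il1rn* and *Il1a* reached the minimum in WT libraries alone. The libraries labelled cKO lay below both WT libraries for 5 of the 10 members, *Il1a*, *Il1b*, *Il1rn*, *Il1r2* and *Nlrp3*, and 18.8% of genes with a value did so. They lay above for 1, *Il1rl1* (24.7% of genes with a value). With no minimum, the median log2 difference was -0.72 over all 10 members, with 7 below 0, and -0.01 over all genes, of which 49.1% were above 0.

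*Il1rn* stood at 0.189 and 0.138 scaled RPKM in cKO FAEE-SAP and at 1.32 and 1.54 in WT FAEE-SAP libraries, 8.89-fold lower by the scaled read ratio (95% interval 6.15 to 13.3). The log2 difference was -2.69 (SE 0.28, limma adjusted p = 0.0215). The adjusted p was 0.145 without WT FAEE-SAP replicate 1, 0.249 without replicate 2, and 0.111 with no minimum, with differences of -2.76, -2.54 and -2.75.

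*Il1b* was 0.599 and 0.226 against 1.36 and 1.32, 3.26-fold lower in cKO by the scaled read ratio (95% interval 2.38 to 4.56). The difference of -1.67 (SE 0.42) did not pass the adjustment (limma adjusted p = 0.130), and the cKO libraries differed from each other by more than the WT ones. *Il1a* was 0.0877 and 0.0672 against 0.338 and 0.312, 4.18-fold lower by the scaled read ratio (95% interval 2.08 to 9.53), with a log2 difference of -1.43 (SE 0.33, limma adjusted p = 0.118). *Nlrp3* was 0.0683 and 0.0572 against 0.212 and 0.175, with a log2 difference of -1.03 with no minimum (SE 0.26, limma adjusted p = 0.250). *Il1r2* was 0.417 and 0.834 against 0.903 and 1.33, groups that nearly touch (log2 difference -0.82, SE 0.39, limma adjusted p = 0.315).

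The other members differed less. *Il1r1* stood at 1.15 and 1.26 in cKO FAEE-SAP and at 1.26 and 1.04 in WT FAEE-SAP libraries, a log2 difference of 0.06 (SE 0.24, limma adjusted p = 0.923). For *Il18* it was 0.07 (SE 0.38), for *Il33* -0.49 (SE 0.78) and for *Casp1* 0.55 (SE 0.39), and none passed the test. Without scaling, when the median gene differed by -0.91, *Il1r1*, *Il18* and *Casp1* took the other sign (-0.85, -0.77 and -0.33).

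After saline, 2 members were tested between the genotypes, *Il33* (-0.58, SE 0.26) and *Casp1* (-0.20, SE 0.43), and 0 were called by limma. Among all 8715 genes tested the number called was also 0 (0.0%), with 187 at an unadjusted p under 0.05 and 59 of them changed at least 2-fold. *Il18* and *Nlrp3* were higher and *Il33* was lower in both libraries labelled cKO than in both WT saline libraries, patterns that 14.2% and 13.1% of genes with a value had. *Il18* stood on 5 and 6 reads in cKO against 4 and 5 in WT saline libraries, and *Nlrp3* on 3 and 2 against 1 and 2. Their scaled read ratios were 1.22 (exact interval 0.460 to 3.34) and 1.67 (0.324 to 10.7). These intervals span equal levels, so the higher values of *Il18* and *Nlrp3* were not told apart from counting error. For *Il33* the ratio was 0.628 (0.498 to 0.790, counting error only).

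Whether the response to FAEE-SAP differed between the genotypes was tested as an interaction term in 1 model of the 8 libraries. Of the 8 members tested, 0 were called by limma, where 0.0719% of 11133 genes were. At an unadjusted p under 0.05 with a 2-fold difference, 3 passed, *Il1rn*, *Il1a* and *Il1b*, and 7.02% of all genes did. Without the WT FAEE-SAP libraries, where they are high, these 3 would not have reached the minimum, so the number is not evidence about the members. The response of *Il1rn* was smaller in cKO by 2.45 on the log2 scale (log2 difference -2.45, SE 0.48, unadjusted p = 0.00119, limma adjusted p = 0.151). For *Il1b* the difference was -1.80 (SE 0.68, limma adjusted p = 0.358) and for *Il1a* -1.62 (SE 0.56, limma adjusted p = 0.327). The responses of *Il1r1* (0.02, SE 0.27), *Il33* (0.11, SE 1.0) and *Il18* (-0.15, SE 0.47) were not told apart between the genotypes.

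Ranked by group means, *Il1b*, *Il1rn*, *Il1r2* and *Nlrp3* had the same upper order, WT FAEE-SAP, then cKO FAEE-SAP, then the saline groups, with no overlap between libraries at the first and second step, an order that 1.91% of the 20358 genes with a value had. The saline groups overlapped each other in *Il1b*, *Il1rn* and *Il1r2*. *Il1a* was highest in WT FAEE-SAP, and cKO saline and cKO FAEE-SAP overlapped below it. In *Il1r1* the FAEE-SAP groups overlapped each other above the saline groups, which also overlapped each other. In *Casp1* and *Il1rl1* every group overlapped its neighbour in the order. In *Il18* and *Il33* the first neighbours to separate were the saline groups, which for *Il18* held 4 to 6 reads per library.

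The 3 genes closest to each tested member by Pearson correlation of log2(scaled RPKM + 0.1) over the 8 libraries were listed as a description, with no test. For *Il1b* they were *Sema3f* (0.995), *Lilrb4a* (0.992) and *Mmp9* (0.987), and for *Il1rn* *Fut2* (0.995), *Siglece* (0.990) and *Leprot* (0.989). For *Il1a* they were *Rnaseh2a*, *Hspb1* and *Prr13* (0.975 to 0.981), and for *Il1r2* *Pdcd6*, *Adamts15* and *Hmga1* (0.985 to 0.992). The matrix genes *Vcan* and *Tsku*, with *Slf1*, were closest to *Il1r1* (0.986 to 0.990). For *Casp1* they were *Zkscan5*, *Cd300ld* and *Cd48* (0.947 to 0.968), for *Il18* *Tspan15*, *F2rl1* and *Il15ra* (0.943 to 0.972) and for *Il33* *Ksr1*, *Shisa3* and *Csf2rb* (0.960 to 0.977). The 8 points share groups and scaling. Among the members themselves, the correlation was 0.943 between *Il1b* and *Il1rn*, 0.866 between *Il1a* and *Il1rn* and -0.04 between *Casp1* and *Il1rn*.

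Neutrophil markers were also highest in the WT FAEE-SAP libraries by their summed level. Of 10 markers, 7 were tested in the WT response and 7 were called higher, where 3.08% of all genes tested were. Of these, 6 reached the minimum in the FAEE-SAP libraries alone, so their deposited RPKM had to be higher there and the count is not evidence about the list. In cKO against WT after FAEE-SAP 2 of 7 were called lower, *Retnlg* (-2.26) and the calprotectin gene *S100a8* (-2.32), where 0.409% of all genes tested were. The summed level of the 10 was 1.43 to 3.88 scaled RPKM in the 4 saline libraries, 20.1 and 13.7 in cKO FAEE-SAP and 60.7 and 56.7 in WT FAEE-SAP libraries. In FAEE-SAP libraries most of it was *S100a8* and *S100a9*, and the granule genes *Mpo* and *Elane* were listed at 0 in both WT FAEE-SAP libraries. Other markers did not follow the sum, with *Mpo* at 0.101 and 0.155 in cKO FAEE-SAP libraries and *Csf3r*, a growth factor receptor gene, at 1.06 and 0.56 there against 0.877 and 0.818 in WT FAEE-SAP libraries. *Il1b*, *Il1rn* and *Il1r2* are expressed by neutrophils as well as by other cells, and the part of neutrophils in their values was not tested. Without WT FAEE-SAP replicate 1 or 2, the 7 neutrophil calls were 3 or 0 and the 2 calls were 0. The sum of duct markers (5 genes, all above 0 in every library) stood in the same order, at 11.3 to 13.9 in saline, 17.2 and 21.1 in cKO FAEE-SAP and 36.9 and 35.6 in WT FAEE-SAP libraries. Of these, *Epcam*, an epithelial adhesion gene, was called higher in the WT response (2.16). *Epcam* and *Krt19* made up most of the sum, and *Cftr*, *Sox9* and *Krt7* were lower in both WT FAEE-SAP than in both WT saline libraries (*Cftr* 0.0194 and 0.0142 against 0.143 and 0.114). The part of duct cells in the values of the members was not tested. Monocyte and macrophage markers (10 genes) summed to 73.4 to 91.6 in saline, 126 and 110 in cKO FAEE-SAP and 110 and 81.5 in WT FAEE-SAP libraries, so that the WT FAEE-SAP libraries overlapped saline and the cKO FAEE-SAP libraries did not. Of the monocyte and macrophage markers only *Cd14*, the lipopolysaccharide co-receptor, was called, higher in the WT response (3.39) and lower in cKO after FAEE-SAP (-2.37).

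**Figure D3:**
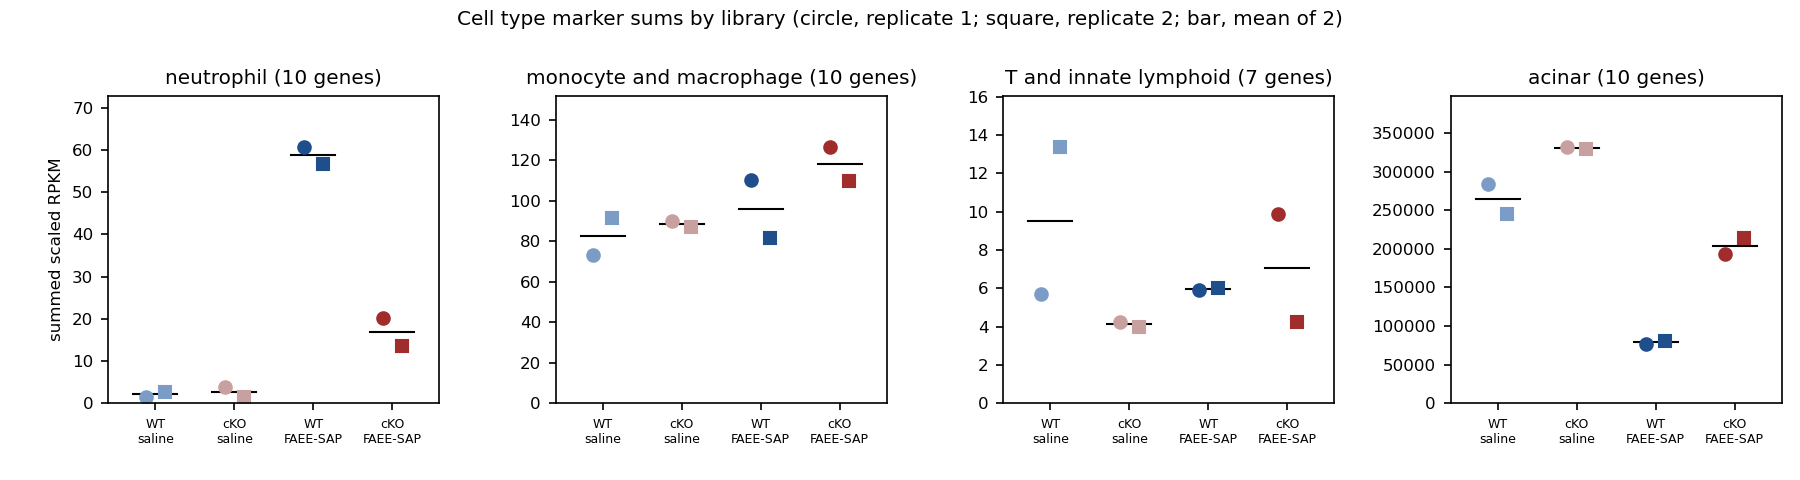
Summed scaled RPKM (y axis, from 0) of marker genes of 4 cell types in the 4 groups (x axis), with 1 point per library and a bar at the mean of 2. Neutrophil sums are highest and acinar sums lowest in the WT FAEE-SAP libraries, while monocyte and macrophage sums of the WT FAEE-SAP libraries (110 and 81.5) overlap those of saline (73.4 to 91.6).

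The remaining ligands and receptors of the family were mostly too low to test. Of 10 listed cytokines and antagonists, 6 names were in the files and 1 was tested in the WT response, *Il18bp*, the secreted inhibitor of IL-18 (0.16, not called). Of 7 other receptors, 1 was tested, the inhibitory receptor *Sigirr* (0.16, not called). The co-receptor *Il1rap*, which IL-1R1 and ST2 need for signaling, was 0.210 to 0.362 scaled RPKM over the 8 libraries. *Il1f9*, the cytokine IL-36γ, was listed at 0 in both WT saline libraries and was 0.196 and 0.565 in WT FAEE-SAP, 0.0518 and 0 in cKO saline and 0.063 and 0.0805 in cKO FAEE-SAP libraries. Its receptor gene *Il1rl2* was 0.064 and 0.112 in WT saline, 0.221 and 0.241 in WT FAEE-SAP, 0.0501 and 0.0984 in cKO saline and 0.107 and 0.131 in cKO FAEE-SAP libraries. In both genes the WT FAEE-SAP libraries were the highest, and neither was tested in that response.

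Among 14 genes of IL-1 receptor signaling, 2 were called in the WT response, both higher, where 3.08% of all genes tested were called higher. *Myd88*, the adaptor of the receptor, was 2.07 and 1.80 scaled RPKM in saline and 8.04 and 9.57 after FAEE-SAP (log2 difference 2.13, SE 0.20, limma adjusted p = 0.00619). *Irak3*, an inhibitor of the pathway expressed in myeloid cells, rose by 1.25 (SE 0.25, limma adjusted p = 0.0418), a call lost without any 1 of the 4 WT libraries. In cKO FAEE-SAP libraries *Myd88* was 2.81 and 2.39, lower than in WT by 1.74 on the log2 scale (log2 difference -1.74, SE 0.22, limma adjusted p = 0.0317), the single call of the 14 (0.409% of all genes tested were called lower). That call was lost without any 1 of the 4 FAEE-SAP libraries (adjusted p 0.0660 to 0.245). In the WT response the call of *Myd88* was lost without WT FAEE-SAP replicate 2 (adjusted p = 0.0785).

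Of 22 further inflammasome genes (sensors, the adaptor *Pycard*, caspases and pore formers), 21 names were in the files and 12 were tested in the WT response. By limma 0 were called there, where 6.93% of all genes tested were, and 0 at an unadjusted p with a 2-fold change, where 1349 of the 10894 genes passed. *Casp8*, a caspase of cell death, had an unadjusted p under 0.05 with less than a 2-fold change (log2 difference 0.79, SE 0.22, limma adjusted p = 0.0853). Of the 12, 4, *Aim2*, *Mefv*, *Casp4* and *P2rx7*, reached the minimum in the FAEE-SAP libraries alone. Without WT saline replicate 2, *Mefv*, which encodes the sensor pyrin, was called. *Pycard* was 0.535 and 0.689 scaled RPKM in WT saline, 0.748 and 0.851 in WT FAEE-SAP, 0.898 and 0.416 in cKO saline and 1.59 and 1.17 in cKO FAEE-SAP libraries. Its log2 difference in the cKO response was 1.03 (SE 0.38, unadjusted p = 0.0442, limma adjusted p = 0.517). In the other comparisons 0 of the list were called (0.0531% of all genes tested in the cKO response and 1.27% between genotypes after FAEE-SAP).

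Genes known to be induced by IL-1 were listed as a group, and most are also induced by other signals. In the WT response 12 of 14 were tested and 8 were called higher, where 3.08% of all genes tested were. Of the 12, 5 (*Cxcl1*, *Cxcl2*, *Cxcl5*, *Ccl2* and *Csf3*) reached the minimum in the FAEE-SAP libraries alone. Their deposited RPKM had to be higher there, so the count is not evidence about the list. *Lcn2*, which encodes an iron-binding acute-phase protein, was 0.849 and 1.01 scaled RPKM in saline and 258 and 259 after FAEE-SAP (log2 difference 8.00, SE 0.17, limma adjusted p = 0.00012). The neutrophil chemokines *Cxcl5* (5.62), *Cxcl2* (4.48) and *Cxcl1* (4.13) and the acute-phase gene *Saa3* (4.43) followed. Without WT FAEE-SAP replicate 1 the number called was 4 and without replicate 2 it was 1, *Lcn2*.

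In cKO against WT after FAEE-SAP 3 of the 12 were called lower, *Saa3* (-5.56), *Cxcl1* (-3.32) and *Cxcl2* (-3.30), where 0.409% of all genes tested were. *Cxcl1*, *Cxcl2*, *Cxcl5* and *Csf3* reached the minimum in WT libraries alone, whereas *Saa3* reached it in both groups. The number was 0 without WT FAEE-SAP replicate 1 or 2. *Saa3* was 0.943 and 1.63 scaled RPKM in cKO FAEE-SAP and 56.6 and 66.4 in WT FAEE-SAP libraries, and 1.60 to 5.06 in saline. It was also the one gene of the lists called in the interaction (-6.17, SE 0.67, limma adjusted p = 0.0413), a call kept only without WT saline replicate 2 when 1 library was left out.

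**Figure D4:**
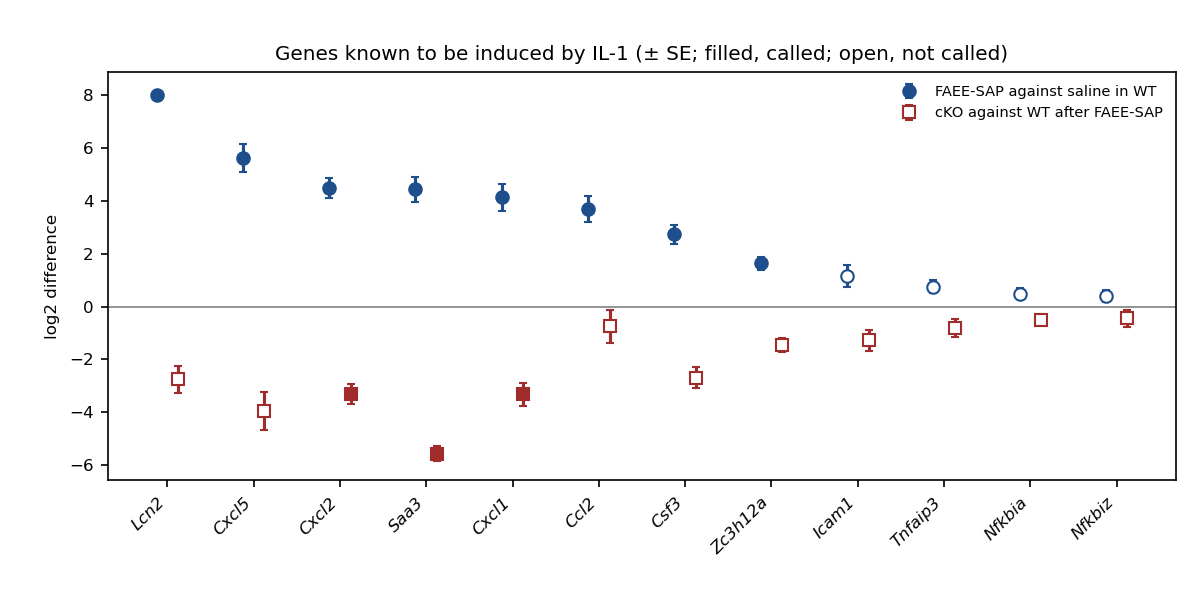
Log2 difference (y axis) with its SE for the 12 tested genes known to be induced by IL-1 (x axis), for FAEE-SAP against saline in WT (circles) and cKO against WT after FAEE-SAP (squares), which share the WT FAEE-SAP libraries. Filled points were called, 8 above 0 in the first and 3 below 0 in the second.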

How the data were processed

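Total RNA of whole pancreas was made into libraries with a directional kit and sequenced paired-end on a NovaSeq. Reads were filtered with fastp and mapped to GRCm38.p6 with CLC Genomics Workbench. The authors deposited RPKM for 48709 genes per library, and how these were computed is not given in the sources used here. The members and the gene lists were chosen with earlier results of these data known. By symbol, 46325 genes (95.1%) matched GENCODE (GRCm38). Reads were worked out from RPKM, exonic length and library total, and 84.0% to 85.3% of values under 20 reads were whole within 0.1 reads. For *Il18* and *Il1rn* the annotated length did not give whole reads, and the smallest whole numbers in the ratio of the 8 values were used. RPKM were scaled by the median of ratios within each comparison (for levels, over all 8 libraries) and tested in R 4.3.3 by limma 3.58.1, whose prior variance followed the mean level, with Benjamini-Hochberg adjustment. The fit was tested on simulated data without counting error, which do not cover genes that stand on few reads. Scaled read ratios divide the summed reads of a group by its summed library totals times scale factors and have exact conditional (Clopper-Pearson) 95% intervals, which cover counting error only. With 2 libraries per group the smallest p of an exact permutation test is 0.333, and none was used. Named genes are all 10 members, up to 5 called genes of each pathway list by size of change, and the 3 genes closest to each tested member. *Mefv*, *Aim2*, *Casp4*, *P2rx7*, *Ccl2*, *Csf3*, *Pycard*, *Il18bp*, *Sigirr*, *Il1rap*, *Il1f9*, *Il1rl2*, *Casp8* and the marker genes named were chosen after their values were seen. Values as deposited, quantile normalization, no minimum or one of 2 RPKM, pseudocounts of 1 and 0.01, a model of all 8 libraries, a replicate block, an unadjusted p and each library left out were tried. Values were handled with Python 3.11.15, pandas 2.3.3, numpy 2.4.6 and scipy, and figures were drawn with matplotlib.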

Additional observations from a re-analysis of the deposited data

How the results depend on the processing

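Most members stood on fewer than 100 reads in saline, so small changes of *Nlrp3*, *Il1rl1*, *Il1a* and *Il18* were not detectable at this depth. In the WT response 4 members were called, and 7 on values as deposited, 2 with no minimum, 2 with a minimum of 2 RPKM and 2 with a pseudocount of 0.01 (*Il1r2* and *Il1rn*). Leaving out 1 library gave 0 to 4, with 0 without WT FAEE-SAP replicate 2 and 1 without replicate 1. In cKO against WT after FAEE-SAP 1 was called, and 4 on values as deposited, 0 with no minimum, 3 at an unadjusted p and 0 to 1 with 1 library left out (0 without WT FAEE-SAP replicate 1 or 2). In the interaction 0 were called, and 2 on values as deposited, 1 with a pseudocount of 1 (*Il1rn*) and 3 at an unadjusted p. The cause was not tested. In the remaining comparisons the number was 0 under every alternative.

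Replicate numbers were not taken as pairs, since deviations from the group mean of same-numbered libraries correlated at -0.17 (WT), 0.40 (cKO), 0.30 (FAEE-SAP) and -0.32 (saline). With replicate number as a block, 3 members were called in the WT response (*Il1b*, *Il1r2* and *Il1rn*), 2 in cKO against WT after FAEE-SAP (*Il1b* and *Il1rn*) and 0 elsewhere. A block with the WT saline numbers exchanged, chosen after seeing the data, gave 3 in the WT response and 0 between genotypes after saline.

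Several members that were not called changed sign. On values as deposited *Casp1* was 0.95 in the WT response, *Il18*, *Il1r1* and *Casp1* were -0.77, -0.85 and -0.33 in cKO against WT after FAEE-SAP, and *Il33* and *Il1r1* were -0.57 and -0.63 in the interaction. *Il1r1* was -0.012 in cKO against WT after FAEE-SAP and -0.039 in the interaction with no minimum, and -0.038 in the interaction with quantile normalization.

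With 1 library left out, *Casp1* ranged from -0.59 to 0.12 in the WT response and from -0.66 to 0.25 between genotypes after saline, and *Il33* from -0.45 to 1.90 in the cKO response. In cKO against WT after FAEE-SAP, *Il18* ranged from -0.35 to 0.49, *Il1r1* from -0.066 to 0.18 and *Il33* from -1.67 to 0.69. In the interaction, *Il33* ranged from -1.06 to 1.27, *Il1r1* from -0.087 to 0.16 and *Il18* from -0.54 to 0.26.

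Counts over all genes moved by more than 1.5 times. In the WT response the 755 genes were 7270 on values as deposited, 259 with no minimum, 442 with the replicate block, 1349 at an unadjusted p and 3 to 386 with 1 library left out. In cKO against WT after FAEE-SAP the 140 were 4427, 0, 568, 924 and 0 to 114 under the same settings, 80 with quantile normalization and 295 in the model of all libraries. In cKO alone the 5 were 15, 0, 52, 280 and 0 to 5, and 15 in the model of all libraries. In the interaction the 8 were 791, 0, 0, 782 and 0 to 3, with 25 by quantile normalization, 35 with a minimum of 2 RPKM, and 24 and 1 with pseudocounts of 1 and 0.01. After saline the 0 became 2 on values as deposited, 1 with quantile normalization and 59 at an unadjusted p.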
